A study of Mus musculus with 46 samples.

Results

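Ovarian follicles that had been grown in culture and were frozen at the moment the ovulatory hormone was due were profiled as single follicles, 1 library for each. These 0 h samples are 9 of the 46 in the series, chosen by their titles alone. Mouse follicles of the outbred CD-1 stock had spent 8 days embedded in alginate beads, 1 follicle per well, in medium with 10 mIU/ml recombinant follicle-stimulating hormone (FSH). They had reached the antral stage and were freed from the beads before freezing. The other samples were frozen 1, 4 or 8 h after human chorionic gonadotropin (hCG) at 1.5 IU/ml, given with 10 ng/ml epidermal growth factor, serum and FSH. All 9 follicles at 0 h were in batch 2. Of these, 5 (follicles 5 to 9) have a description ending in "_ds", a mark whose meaning is not given, and 4 (follicles 1 to 4) do not. The labels do not tie follicles to animals, so spread and p-values concern follicles and not mice.

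A grown follicle is a shell of granulosa cells around 1 oocyte, wrapped in a basal lamina and an outer theca layer. Theca cells make androgens with Cyp17a1, and granulosa cells turn them into estradiol with Cyp19a1 and secrete inhibin and activin. FSH drives granulosa growth and brings in the receptor for luteinizing hormone, Lhcgr, through which hCG later acts. The oocyte supplies growth factors such as Gdf9 and Bmp15 and builds the zona pellucida around itself.

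The 9 libraries held 1633566 to 5185044 counts. Genes with 0 counts in all 6 batch 2 libraries at 1 h and 4 h were left out, which removed 9423 of 25147 genes and 22.6% to 46.2% of the counts of a library. The genes kept held 1264015 to 3202501 counts per library, and 12674 to 14023 of them had a count. Among the left-out genes were Amh, the granulosa hormone that restrains follicle recruitment, and all 5 red blood cell markers, so neither is described. Follicle 3 stood apart from the rest. Its log2 CPM (counts scaled to library size) correlated with those of the other follicles at 0.835 to 0.890, whereas the 28 pairs without it ranged from 0.901 to 0.966. It also had the highest left-out share, 46.2%, and values without it are given beside the count of variable genes, the oocyte sum, the Lhcgr fit and the correlations of named genes.

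Genes that hCG is known to induce were low, as the labelled time implies. The 24 genes of the ovulatory response list, such as the prostaglandin synthase Ptgs2 and the progesterone receptor Pgr, summed to 62.6 to 139 TPM (a level per gene length, rescaled to the genes kept) in the 0 h follicles, against 3888 to 4854 TPM in the 3 batch 2 follicles at 1 h. Ptgs2 was listed at 0 in 6 of the 9 follicles and reached at most 0.333 TPM, and Pgr reached at most 0.391 TPM. The 27 immediate early genes summed to 405 to 1095 TPM in the 0 h follicles and to 11683 to 22185 TPM in those 3 at 1 h. The ranges did not overlap for either list. Most other lists did overlap, such as granulosa markers (51919 to 80581 TPM at 0 h, 41276 to 69745 TPM at 1 h). Steroid synthesis genes (7149 to 16718 and 10290 to 15716 TPM) and cell cycle genes (627 to 1679 and 548 to 766 TPM) did so as well. Still, a lack of overlap was not particular to the ovulatory and immediate early lists. Smooth muscle markers (23.4 to 418 TPM at 0 h, 730 to 909 TPM at 1 h) and cholesterol synthesis genes (1829 to 2691 and 2841 to 4528 TPM) did not overlap either. Nor did hypoxia and glycolysis genes, which were lower at 1 h (23413 to 39087 and 13028 to 20547 TPM). By the rule, the left-out genes have 0 counts in the 3 batch 2 follicles at 1 h. Rescaling therefore raised TPM at 0 h and not in those 3. The granulosa sum at 0 h averaged 44044 TPM as deposited and 69024 TPM after rescaling. The ranges were not compared before rescaling, so how far the lower level at 1 h rests on it was not tested.

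Mitochondrial, granulosa and general metabolic genes held the highest levels. The 30 highest named genes by median TPM made up 29.1% to 36.8% of all TPM in a follicle, and 1 gene with a provisional name ranked among them. Of the 30, 7 were mitochondrially encoded, 4 were granulosa markers, 3 encoded ribosomal proteins, and 0 were theca or oocyte markers. The coefficient of variation between the 9 follicles was 11.7% to 43.4% for these 30 genes, with a median of 21.2%.

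Mitochondrial messages led the ranking. The gene mt-Atp6, a subunit of ATP synthase, had the highest level, at 57876 TPM in the lowest follicle, 70694 TPM at the median and 99387 TPM in the highest. The complex I gene mt-Nd1 came next with a median of 41575 TPM. The 12 mitochondrially encoded genes kept summed to 137760 to 207540 TPM, and follicles 1 and 2 had the highest sums. One of them behaved unlike the rest. The cytochrome oxidase gene mt-Co3 had 0.349, 0 and 0.671 CPM in follicles 2, 6 and 9 but 131 to 793 CPM in the other 6.

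Granulosa genes were the highest nuclear genes of known cell of origin. Inha, the alpha subunit of inhibin, ranked at 4 with 17020 TPM in the lowest follicle, a median of 30174 TPM and 39106 TPM in the highest. It was lowest in follicles 3, 1 and 2 and highest in follicle 8. Gja1, the connexin that joins granulosa cells into a network, had a median of 23867 TPM and stood highest in follicle 2 at 37890 TPM. Inhba, which encodes the activin A and inhibin A beta subunit, had a median of 8800 TPM, with 6851 TPM in the lowest and 11087 TPM in the highest follicle. The protease inhibitor Serpine2 completed the 4, with a median of 3723 TPM. Its level was lowest in follicle 3 at 1211 TPM.

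The full granulosa list summed to a median of 73943 TPM, 7.39% of all TPM, and its lowest and highest follicles differed by 1.55-fold (51919 and 80581 TPM in follicles 3 and 6). Of its 22 members 21 were kept, and 20 of those had a median of at least 1 TPM. The exception was Wt1, a transcription factor of early follicles, at 0.218 TPM. The estradiol enzymes were present, with medians of 1507 TPM for Hsd17b1 and 187 TPM for Cyp19a1, the aromatase. The FSH receptor Fshr ranged from 65.4 to 250 TPM around a median of 115 TPM. Foxl2, the transcription factor that maintains granulosa identity, had a low and even level, from 7.10 to 15.8 TPM.

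**Figure D1:**
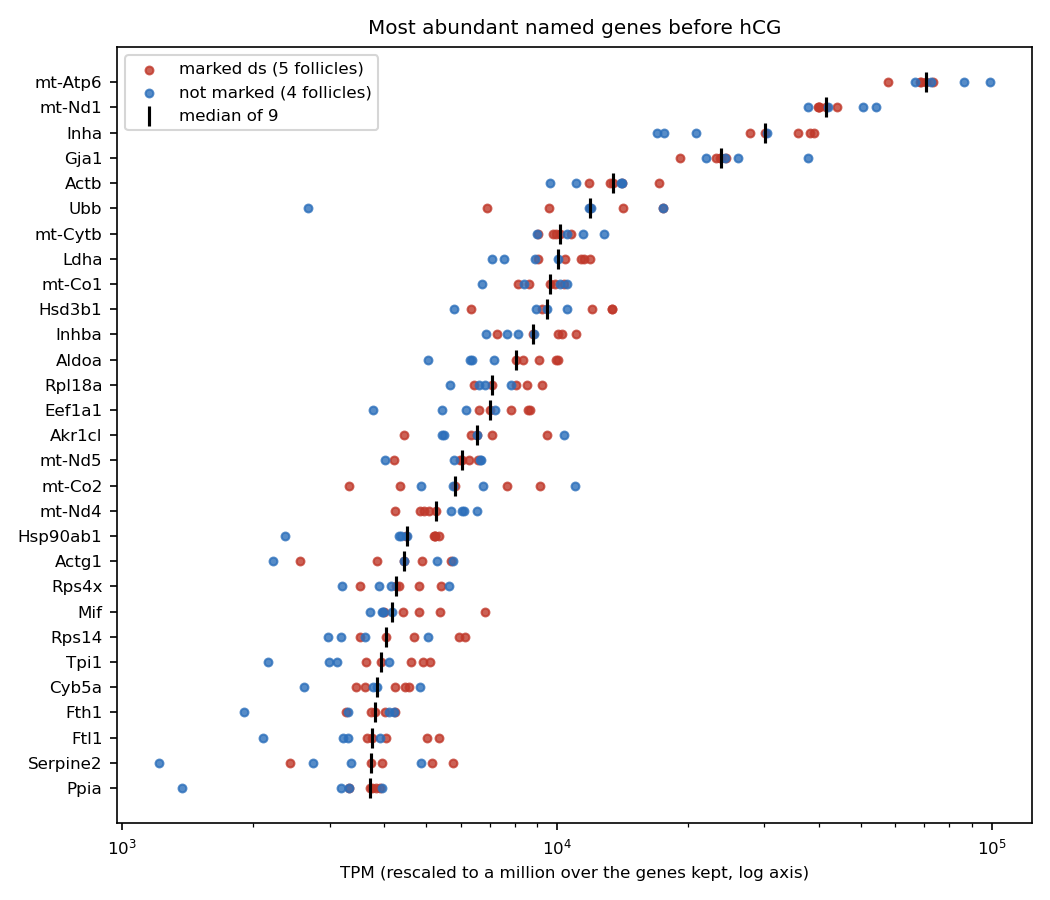
Named genes with the highest median level (rows; 1 of the 30 is not drawn) in each of the 9 follicles, as TPM on a log axis; red points are the 5 follicles marked ds, blue points the 4 not marked, and bars the median of 9. The mitochondrial mt-Atp6 leads at a median of 70694 TPM, and Inha and Gja1 are the granulosa genes with the highest level.

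Genes of steroid synthesis split into high and low members. Hsd3b1, which makes progesterone from pregnenolone, was among the 30 highest, at 5801 to 13403 TPM with a median of 9460 TPM. Cyp11a1, the side-chain cleavage enzyme that starts steroid synthesis, had a median of 134 TPM and ranged from 66.0 to 273 TPM. Star, which carries cholesterol into mitochondria and rises strongly at ovulation, stayed between 1.36 and 10.0 TPM with a median of 3.46 TPM. Of the 18 genes of the list, 16 had a median of at least 1 TPM.

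Genes of glycolysis were also among the 30. Ldha and Aldoa, enzymes of glycolysis, had medians of 10077 and 8060 TPM, and Tpi1 of the same pathway had 3926 TPM. Ubb, which encodes ubiquitin, had a median of 11920 TPM and was lowest in follicle 2, at 2678 TPM. Akr1cl, an aldo-keto reductase gene, had a median of 6540 TPM.

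Theca and stroma genes were far lower. Their 17 genes summed to 549 to 2370 TPM with a median of 996 TPM, or 0.0996% of all TPM. In bulk libraries, fewer cells of a type and less RNA per cell cannot be told apart. The highest was Aldh1a1, a retinaldehyde dehydrogenase, which ranked at 333 with a median of 357 TPM and reached 1481 TPM in follicle 8. Col3a1, a fibrillar collagen of connective tissue, had a median of 198 TPM and reached 648 TPM in follicle 7. Insl3, a peptide hormone of theca cells, had a median of 92.8 TPM and was highest in follicle 8 at 292 TPM. Cyp17a1 had a median of 22.5 TPM.

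Theca genes did not all peak in the same follicle. Cyp17a1 and Aldh1a1 were highest in follicles 1 and 8. Insl3 was highest in follicle 8, followed by follicles 3 and 1. The collagens Col1a1, Col1a2 and Col3a1 and the matrix protein Mgp were highest in follicle 7. Gli1, a readout of the hedgehog signal that granulosa cells send to theca, was listed at 0 in 5 of 9 follicles and reached at most 0.244 TPM, while Ihh, the signal itself, had a median of 16.2 TPM.

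Oocyte genes were present at low levels. The 27 oocyte markers summed to 29.1 to 377 TPM with a median of 84.7 TPM, a 12.9-fold range between follicles 8 and 6. The highest by median was Btg4, which clears maternal RNA in the egg, at 13.0 TPM and rank 4380. H1foo, the oocyte linker histone, had 2.72 TPM in the lowest follicle, 11.9 TPM at the median and 59.0 TPM in the highest. The zona genes Zp2 and Zp3 had medians of 0.831 and 2.18 TPM, and Gdf9 had 1.25 TPM. Ddx4, an RNA helicase of germ cells, was listed at 0 in all 9.

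Oocyte genes were high in follicles 3, 6 and 7. The list summed to 280, 377 and 193 TPM there and to 29.1 to 98.1 TPM in the other 6. For 15 of 26 markers with a count, these were the 3 highest follicles. Follicle 3 is the one that stood apart, and without it the mean of the list was 122 TPM, against 140 TPM over all 9. Oog1, an oocyte gene of the Pramel family, had 58.5 TPM in follicle 6, against 24.5 TPM in the next highest. Its relatives share sequence, so its level is uncertain. The kept totals of follicles 3, 6 and 7 were 1269310, 2882467 and 2807013 counts.

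**Figure D2:**
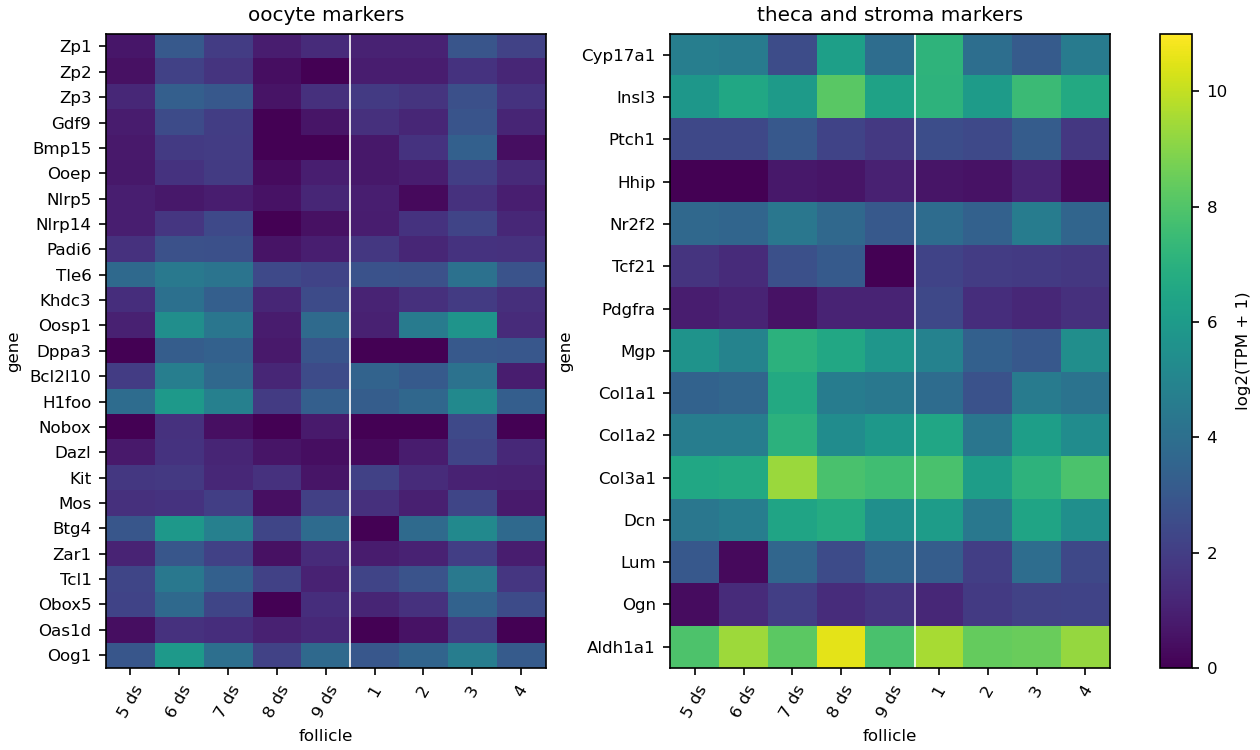
Levels of oocyte markers (left) and of theca and stroma markers (right) in each follicle, as log2(TPM + 1), for genes that reach 1 TPM in at least 1 follicle; the follicles marked ds stand left of the white line and the others right of it. Oocyte markers are brightest in follicles 6, 7 and 3, and the collagens in follicle 7.

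Markers of other cells were scarce. The 6 smooth muscle markers summed to 23.4 to 418 TPM, most of it from Acta2, smooth muscle actin, while Myh11, the defining muscle myosin, reached at most 0.670 TPM. The 5 leukocyte markers kept summed to 11.5 to 170 TPM, most of it from Lyz2, the lysozyme of macrophages, and Csf1r, a macrophage receptor, reached at most 1.97 TPM. Endothelium markers summed to 3.89 to 21.2 TPM and surface epithelium markers to 2.11 to 15.8 TPM. The granulosa sum exceeded each of these lists in every follicle.

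**Figure D3:**
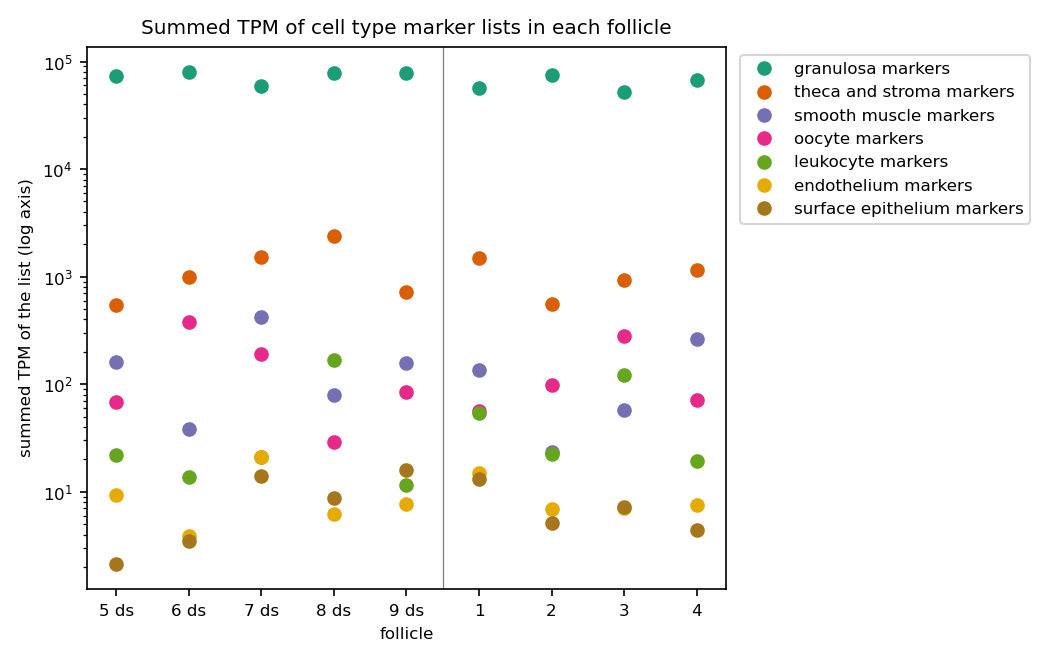
Summed TPM (log axis) of 7 marker lists in each follicle, with the follicles marked ds left of the grey line and the others right of it. Granulosa sums lie between 51919 and 80581 TPM, and theca and stroma sums between 549 and 2370 TPM, while the oocyte, smooth muscle and leukocyte lists change order between follicles.

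The spread between follicles was measured gene by gene against genes of the same level. Dispersion, the variance of counts beyond counting error, was set over its trend with level, and a gene was called variable when the ratio was at least 4 over all 9 follicles and in each of 9 fits that left out 1 follicle. Of 6581 genes tested, which needed counts in every follicle, 24 were variable, 0.365%. At the trend, the coefficient of variation between follicles was 29.0% to 34.3%, and the median ratio was 0.683. The last gene inside the threshold had a smallest ratio of 4.00 and the next one outside had 3.95. These ratios describe the follicles that chose the genes and carry no test. Without follicle 3 the count was 60, and 20 of the 24 were among them. Apoe, Lyz2, Lhcgr and Rarres2 were not.

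**Figure D4:**
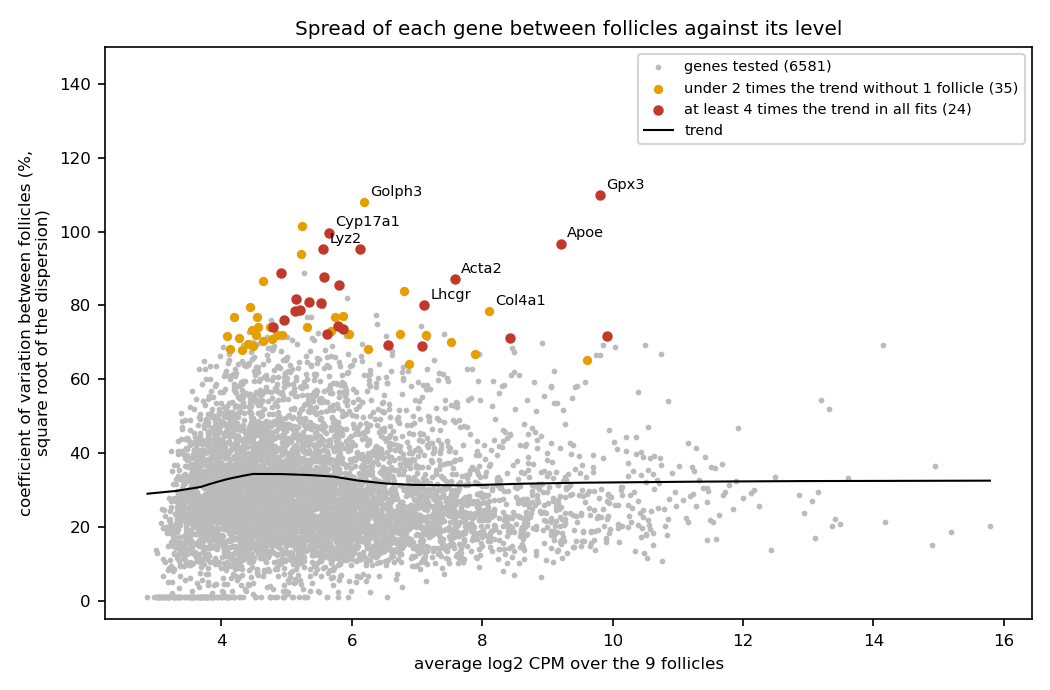
Coefficient of variation between follicles (%, the square root of the dispersion) against average log2 CPM for the 6581 genes tested; red genes stayed at least 4 times over the trend (black line) in all fits, and orange genes fell under 2 times the trend without 1 follicle. Gpx3, Apoe and Cyp17a1 are among the red genes with the highest values, and Golph3 and Col4a1 rest on 1 follicle.

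Gpx3, secreted glutathione peroxidase, which clears peroxides outside cells, had the largest ratio of the 24, at 11.8 (chr11:54902453-54910377, plus strand, GRCm38). It had 137 CPM in the lowest follicle, 279 CPM at the median and 3715 CPM in the highest. Follicles 7, 3 and 1 were high, at 3715, 1613 and 979 CPM, and the other 6 lay between 137 and 295 CPM. Rarres2, which encodes the chemoattractant chemerin, grouped with it and was also highest in follicles 3 and 7, at 87.3 and 81.7 CPM, with a median of 16.8 CPM. The Pearson r of their log2 CPM over the 9 follicles was 0.68, and 0.58 without follicle 3.

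Apoe, which carries cholesterol between cells, and Lyz2 formed the next pair (r = 0.75 over 9 follicles and 0.71 without follicle 3). Apoe (chr7:19696109-19699188, minus strand) had 130 CPM in the lowest follicle, 234 CPM at the median and 2402 CPM in the highest, follicle 8. Lyz2 had 10.1 CPM in the lowest, 19.1 CPM at the median and 181 CPM in the highest, again follicle 8. Follicle 3 was next for both, at 912 CPM for Apoe and 78.3 CPM for Lyz2. Apoe also had 574 and 407 CPM in follicles 7 and 6, where Lyz2 had 19.1 and 12.3 CPM. Macrophages express both genes, and the part of such cells in this pattern was not tested; Of the other macrophage markers, Csf1r was highest in follicle 8 at 1.97 TPM, with 0.952 TPM in follicle 3 next, and Cd68 was highest in follicle 3 at 8.19 TPM, with 1.26 TPM in follicle 8.

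Cyp17a1 (chr19:46667165-46673172, minus strand) varied from 6.62 to 168 CPM around a median of 30.6 CPM. Follicles 1 and 8 were high, at 168 and 108 CPM, and the other 7 lay between 6.62 and 32.0 CPM. Aldh1a7, an aldehyde dehydrogenase close in sequence to Aldh1a1, grouped with it and had 114 and 125 CPM in the same follicles, with 94.6 CPM in follicle 4 as well. Reads of Aldh1a7 and Aldh1a1 may not be fully told apart, so its level is uncertain. Of 5063 genes compared, Cyp11a1 was among the 5 most like Cyp17a1 over the 9 follicles (r = 0.92, and 0.90 without follicle 3). The others were Ostm1, Eps15l1, Glul and Fdx1, the electron carrier of Cyp11a1. The highest r of so many genes over 9 follicles can be large by chance. No gene passed in the fit on Cyp17a1 described below.

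Lhcgr, the receptor through which hCG acts, differed widely between these follicles, which were frozen without hCG (chr17:88716481-88791990, minus strand). It had 12.05 CPM in the lowest follicle, 132 CPM at the median and 381 CPM in the highest. Follicle 5 was highest and follicles 3 and 7 lowest, at 12.05 and 40.5 CPM, while the other 6 lay between 83.2 and 183 CPM. On the scale per length this was 8.76 TPM in follicle 3 and 214 TPM in follicle 5. Its ratio to the trend was 6.52, and 5.15 without follicle 3, where it no longer stayed at 4 or more in every fit. Fshr was correlated with it over the 9 follicles (r = 0.86, and 0.87 without follicle 3), but its own ratio was 2.26.

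The 250 bases before the start of Lhcgr and of Gpx3 are shown because these are the gonadotropin receptor gene that varied and the gene with the largest ratio. The starts are those of RefSeq in GRCm38.p6, printed 5′ to 3′ on the gene's strand, and capitals mark the GC box GGGCGG, the element that Sp1 factors read. Lhcgr is at chr17:88792015-88792264 on the minus strand and Gpx3 at chr11:54902604-54902853 on the plus strand, inside the span that GENCODE gives that gene.
Lhcgr: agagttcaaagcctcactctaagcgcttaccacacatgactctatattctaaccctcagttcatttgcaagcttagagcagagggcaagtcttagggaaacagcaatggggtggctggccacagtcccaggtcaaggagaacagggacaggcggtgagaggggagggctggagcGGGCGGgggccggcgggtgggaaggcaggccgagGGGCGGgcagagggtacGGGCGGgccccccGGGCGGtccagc
Gpx3: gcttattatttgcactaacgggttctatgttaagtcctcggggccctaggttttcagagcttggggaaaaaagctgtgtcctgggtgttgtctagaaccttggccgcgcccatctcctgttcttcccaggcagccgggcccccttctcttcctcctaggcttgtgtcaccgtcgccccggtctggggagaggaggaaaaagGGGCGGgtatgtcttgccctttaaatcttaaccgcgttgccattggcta
The Lhcgr window held 4 GC boxes, at 76, 42, 25 and 12 bases before the start, and the Gpx3 window 1. Searched on both strands, 32.7% of 32851 RefSeq promoter windows of this length held at least 1 GC box and 4.09% held 4 or more. Neither window held a TATA box (TATAAA, in 12.4% of windows), the NR5A motif (AAGGTCA, 4.08%) or a full cyclic AMP response element (TGACGTCA, 1.55%).

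Acta2 was the last of the variable genes that belong to a cell type list, that of smooth muscle (chr19:34241090-34255590, minus strand). It had 31.4 CPM in the lowest follicle, 155 CPM at the median and 532 CPM in the highest, follicle 7, followed by 353 CPM in follicle 4. Actg2, the enteric smooth muscle actin, was correlated with it over the 9 follicles (r = 0.97, also without follicle 3) at 0.349 to 4.89 CPM, which is 1 to 12 counts. Myh11 had 0 to 6 counts and Tagln 0 to 32, with r of 0.34 and 0.10. By the grouping used here, Acta2 stood with the group of Speer4a described next, with an r of 0.58 to Speer4a (0.51 without follicle 3).

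The remaining variable genes belonged to no cell type list, and 8 of them had provisional names. Speer4a, Zfp65, Zfp488, Olfr1191-ps1, Olfr539, Olfr1385, Vmn1r58 and 3 genes with clone names were all highest in follicles 1, 4 and 9. Speer4a, of a family expressed in testis, had 96.3, 72.6 and 105 CPM there and 4.22 to 35.4 CPM in the other 6. Olfr and Vmn1r genes encode odorant and pheromone receptors, and these families have many near-identical copies between which reads can be split. A further 4 genes with provisional names, Gm10715, Gm10719, Gm10721 and Gm17535, were highest in follicles 3, 4 and 9 and had a slope of -2.05 to -2.15 on the log2 scale per doubling of the library size, with a smallest adjusted p of 0.107 over all genes in edgeR's quasi-likelihood test. Follicles 3, 4 and 9 had the 3 smallest kept totals, 1269310, 1264015 and 1458371 counts. Zc3h11a, an RNA-binding protein gene, and 1 gene with a clone name were highest in follicle 3.

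**Figure D5:**
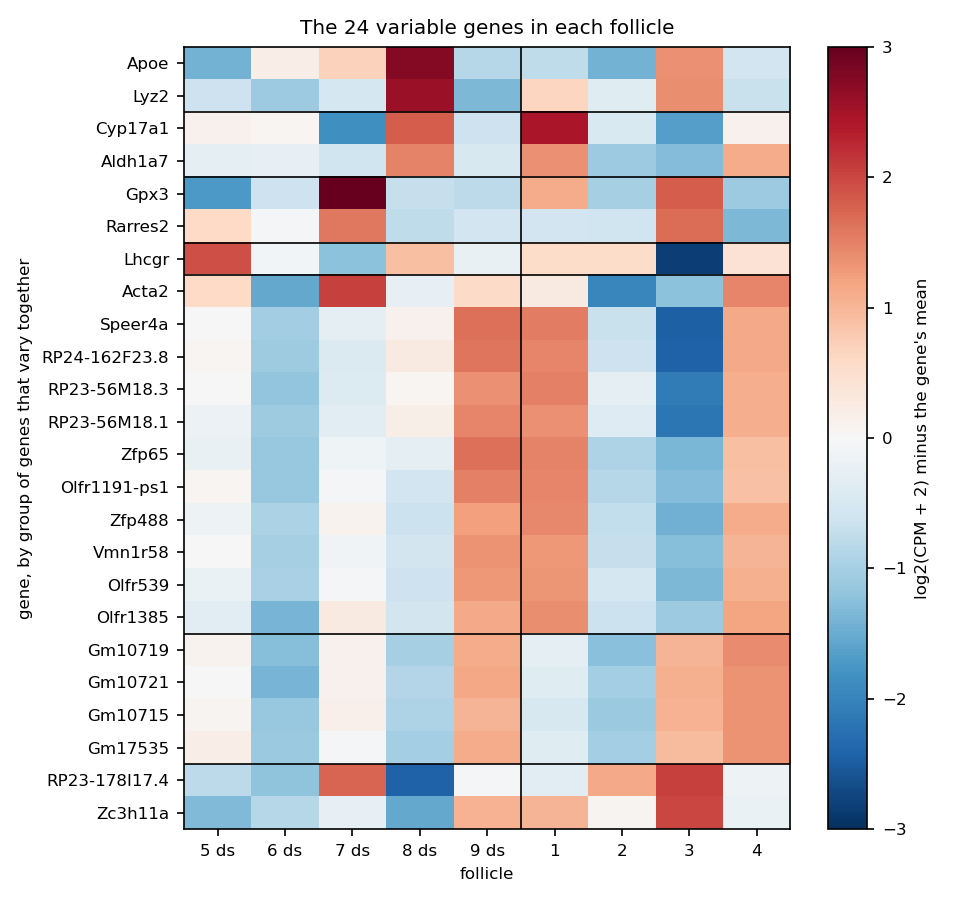
The 24 variable genes (rows) in each follicle, as log2(CPM + 2) minus the gene's mean, with black horizontal lines between groups that vary together; the follicles marked ds stand left of the vertical line and the others right of it. Apoe and Lyz2 are darkest in follicle 8, Cyp17a1 in follicles 1 and 8, and Gpx3 in follicle 7.

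These groups came from average linkage on 1 minus Pearson r, divided at 0.4, and are a description. The median r was 0.94 between variable genes of the same group, 0.30 between all variable genes and -0.00 between all tested genes whose average log2 CPM reached 4. The groups were made from these same r, so the first value was bound to be high. Most of its 65 pairs lie in the group of Speer4a, so it does not describe the smaller groups.

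Further genes were extreme in a single follicle. Of 120 genes with a ratio of at least 4 over all 9 follicles, 35 whose average log2 CPM reached 4 fell under 2 when 1 follicle was left out. Of these, 28 rested on follicle 3, 6 on follicle 7 and 1 on follicle 1, and each gene of follicles 3 and 7 was highest there. Golph3, a Golgi coat protein gene, had 364 CPM in follicle 3 and 16.6 to 44.8 CPM elsewhere. Ppp3ca, the catalytic subunit of calcineurin, had 161 CPM in follicle 3 and 11.4 to 25.8 CPM elsewhere. Otud4, a deubiquitinase gene, followed the same pattern.

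The 6 genes of follicle 7 were Col4a1, Col4a2, Col1a1, Sparcl1, Ltbp4, which binds latent TGF-beta in the matrix, and Cygb, a globin of fibroblasts. Col4a1, the basal lamina collagen, had 460 TPM in follicle 7 and 40.0 to 117 TPM elsewhere. Col1a1 had 100 TPM there and 5.76 to 23.3 TPM elsewhere, and Sparcl1, a secreted matrix protein gene, had 89.9 TPM there and 3.97 to 15.5 TPM elsewhere. The 17 genes of the matrix and basal lamina list summed to 2024 TPM in follicle 7 and to 535 to 1125 TPM in the other 8. The smooth muscle list was also highest in follicle 7, at 418 TPM with 261 TPM next, and so was the endothelium list, at 21.2 TPM with 15.0 TPM next. The theca list, at 1511 TPM, and the granulosa list, at 58951 TPM, were not. The part of such cells in the matrix levels was not tested.

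Lists of 9 to 22 tested genes are small beside the 0.365% of all genes that were variable, so a count of 0 in a list is not a result about it. Of 14 steroid synthesis genes tested, 2 were variable, Cyp17a1 and Lhcgr. Of 21 cell cycle genes tested, 0 were variable, as were 0 of 13 immediate early genes, 0 of 22 cholesterol synthesis genes, 0 of 14 hypoxia and glycolysis genes, 0 of 10 cell death genes and 0 of 11 mitochondrial genes. The median ratio was 0.62 for cholesterol synthesis and 0.39 for mitochondrial genes, beside 0.68 over all genes. It was 2.62 for matrix and basal lamina and 4.02 for the 9 theca and stroma genes tested, of which 1 was variable and 5 stayed at least 2 times over the trend, beside 3.78% of all genes. No oocyte marker had counts enough in every follicle to be tested.

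Genes absent in some follicles did not pass the filter on low counts, so their spread was not tested. In all, 252 genes had under 1 CPM in at least 1 follicle and 20 CPM or more in another, mt-Co3 among them. Follicle 4, with the smallest kept total, was under 1 CPM for 141 of them and follicle 2, with the largest, for 12. Follicle 3, whose kept total of 1269310 counts was close to the 1264015 of follicle 4, was under 1 CPM for 36. The remaining follicles were so for 19 to 78. The part of depth was not tested. In the 6 batch 2 libraries after hCG these genes had a median of 2.54 CPM, against 27.9 CPM for the 6181 other genes that reached 20 CPM. Whether the authors' adjustment between batches had a part in this was not tested. When an average log2 CPM of 3 or more replaced the filter, 51 of 7553 genes were variable, 25 of them under 1 CPM in some follicle.

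The same measure was taken at later times in batch 1, which gave follicles that the choice of genes did not use. Of the 24 variable genes, 13 could be tested at 1 h, 14 at 4 h and 17 at 8 h, and 2 passed each time, while 1.42%, 1.91% and 2.36% of all genes tested passed there. At 2 times the trend, 3, 8 and 2 of them passed, beside 7.03%, 6.99% and 7.09% of all genes. Apoe passed at 1 h and at 8 h and had ratios of 6.39, 6.01 and 7.15 at 1, 4 and 8 h. Gpx3 passed at 8 h with a ratio of 9.49, but had 1.34 at 1 h. Acta2 had ratios of 2.27, 0.97 and 2.90. Olfr1191-ps1 passed at 1 h, and Gm10715 and Gm17535 at 4 h. Lhcgr and Cyp17a1 had too few counts at those times to be tested. Batch 1 libraries numbered 10, 10 and 11, and depth differed between the batches.

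Which genes move with a given marker was asked of all genes at once, with edgeR's quasi-likelihood test on the log2 CPM of Lhcgr, Cyp17a1, Gdf9, Mki67 and Nr4a1 in turn. Amh, which had been left out, could not be used. For Lhcgr, 11 of 10065 genes (0.109%) passed at an adjusted p of 0.05, all of them lower where Lhcgr was higher. They included Golph3, Ppp3ca, Spry2, an inhibitor of growth factor signaling, Slc44a1, a choline transporter gene, and Fam102b. The slope of Golph3 was -0.80 ± 0.13 (SE, n = 9) on the log2 scale per doubling of Lhcgr, with an adjusted p of 0.036 in edgeR. All 11 were highest in follicle 3, the follicle with the lowest Lhcgr, and without follicle 3 the count was 0. It ranged from 0 to 68 as each follicle was left out, with 52 and 68 genes without follicles 2 and 7 and 0 or 1 without follicles 1, 4, 5 or 8. It was also 0 with the ds mark as a further term, in limma on TPM and with the left-out genes kept, and 198 in DESeq2.

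No gene passed for the other 4 markers in edgeR, whose background was 0% each. At an unadjusted p under 0.05 there were 538 genes for Cyp17a1, 405 for Gdf9, 813 for Mki67 and 1150 for Nr4a1, and DESeq2 called 10, 24, 31 and 43. Genes with the smallest p are named here although they did not pass. For Cyp17a1 the smallest was that of Cyp11a1, with a slope of 0.52 ± 0.09 (SE, n = 9) and an adjusted p of 0.345 in edgeR. For Gdf9 they included the oocyte genes Omt2b and H1foo, with slopes of 1.91 ± 0.28 and 1.15 ± 0.20 (SE, n = 9) and adjusted p of 0.067 and 0.107 in edgeR. For Mki67, a marker of dividing cells, they included the mitotic genes Pbk and Top2a, with slopes of 1.67 ± 0.26 and 1.29 ± 0.22 (SE, n = 9) and adjusted p of 0.155 and 0.207 in edgeR.

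In the lists related to each marker, 0 genes passed in these fits. With Mki67, 24 of 25 cell cycle genes had a positive slope, with a median of 0.70, against -0.02 over all genes. With Gdf9, 9 of 10 oocyte markers had one, with a median of 1.08, against 0.00 over all genes. With Cyp17a1, 14 of 14 steroid synthesis genes had one, with a median of 0.21, and 21 of 22 cholesterol synthesis genes, with a median of 0.13, against 0.00 over all genes. These 2 lists were as one-sided with other markers. With Lhcgr, 14 of 14 steroid and 20 of 22 cholesterol synthesis genes had a positive slope, with medians of 0.27 and 0.21. With Nr4a1, 15 of 15 and 20 of 22 did, with medians of 0.19 and 0.16. Of 12 theca and stroma genes, 4 had a positive slope with Cyp17a1. With Nr4a1, an immediate early receptor gene, 13 of 14 immediate early genes had one, with a median of 0.18, against 0.01 over all genes. Of all genes, 4579 of 9552 had a positive slope with Mki67 and 5238 of 10065 with Nr4a1. Lists not tied to a marker were one-sided too. With Mki67, 18 of 20 granulosa markers had a positive slope, and with Nr4a1, 16 of 17 matrix and basal lamina genes. Of 26 cell cycle genes, 22 had one with Lhcgr and 22 with library size. Genes of a list share follicles and scaling, so these counts are a description and not particular to a marker.

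Library size itself was set against all genes in the same way. Of 10066 genes 0 passed in edgeR (0%), with 419 at an unadjusted p under 0.05 and 18 called by DESeq2. With library size, 15 of 16 oocyte markers and 13 of 15 immediate early genes had a positive slope, with medians of 0.97 and 0.51. The 10 genes with the smallest p all had provisional Gm names and negative slopes.

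The follicles marked ds were compared with the others. No gene of 9118 passed in edgeR's quasi-likelihood test (0%), with a smallest adjusted p of 0.420 and 933 genes at an unadjusted p under 0.05. The smallest p was that of Zfp593, a zinc finger gene, with a log2 fold of 4.32 ± 0.73 (SE, n = 5 and 4). DESeq2 called Fbxl15, a ubiquitin ligase subunit gene, and Mcrs1, which acts at spindle microtubules. Fbxl15 had 17.9, 28.4, 22.1, 27.7 and 31.5 CPM in the ds follicles, against 7.01, 5.58, 7.23 and 12.2 CPM in those without the mark. Mcrs1 had 105, 97.8, 79.8, 100 and 73.8 CPM in the ds follicles, against 46.4, 38.7, 36.1 and 56.3 CPM in those without it. Both genes were named because DESeq2 called them in these same follicles, so the separation of their values is a description and not further support. The log2 fold in edgeR was 1.67 ± 0.32 for Fbxl15 and 1.00 ± 0.22 for Mcrs1 (SE, n = 5 and 4), with an adjusted p of 0.479 for both.

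No technical value passed between the marked follicles and the others. The kept count averaged 6.36 ± 0.13 on the log10 scale in ds follicles and 6.26 ± 0.19 in the others (SD, n = 5 and 4, p = 0.373 in a two-sided exact permutation test). Kept genes with a count averaged 13515 ± 369 in ds follicles and 13420 ± 521 in the others (exact permutation p = 0.786). The mitochondrial share of kept counts averaged 9.72% ± 0.51 in ds follicles and 11.1% ± 1.55 in the others (exact permutation p = 0.111). The left-out share averaged 31.7% ± 2.78 in ds follicles and 35.8% ± 9.81 in the others (exact permutation p = 0.397). After Benjamini-Hochberg adjustment over the 4 values the smallest of these exact p was 0.444. Groups of 5 and 4 can be split in few ways, which limits how small an exact p can be.

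Cell type lists overlapped between the groups as well. The granulosa list averaged 74098 ± 8809 TPM in ds follicles and 62683 ± 10605 TPM in the others (SD, n = 5 and 4). Theca and stroma markers averaged 1230 ± 734 TPM in ds follicles and 1033 ± 395 TPM in the others. Oocyte markers averaged 150 ± 140 TPM in ds follicles and 127 ± 104 TPM in the others. Hypoxia and glycolysis genes averaged 35317 ± 3836 TPM in ds follicles and 27567 ± 3787 TPM in the others, with ranges of 30543 to 39087 TPM and 23413 to 32375 TPM. Spread was counted within each group too, with 50 of 7774 genes variable among the ds follicles and 14 of 6623 among the others, in groups of unequal size.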

How the data were processed

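Single cultured mouse follicles were profiled by Smart-Seq2 with Nextera XT libraries, per the labels' protocols. The authors deposited a table of gene counts whose file name says that ComBat-seq had adjusted it between batches, and a table of TPM made from those counts. HISAT2, Partek and DESeq2 are named in the submitters' processing notes, with the build GRCm38; their versions are not given in the sources used here. Each table held 10 columns that matched no sample, which were not used.

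Genes with 0 counts in all 6 batch 2 libraries at 1 h and 4 h were left out, and TPM were rescaled over the genes kept. The rule, the marker lists and the named genes were chosen with earlier results of these data known. Genes were named by rank of median TPM, by list, by spread and by likeness to fixed markers. Where a gene was named for another reason, such as the DESeq2 calls, it was chosen after its values were seen. The values of 1 of the 30 most abundant genes are not reported here.

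Counts were analysed in R 4.3.3 with edgeR 4.0.16 (TMM scaling, quasi-likelihood test, Benjamini-Hochberg adjustment, threshold 0.05). Genewise dispersion was set over its trend. DESeq2 1.42.0 and limma 3.58.1 on log2(TPM + 1) or log2(TPM + 0.1) served as alternatives, with other scaling, filters and left-out follicles. The methods were tested on simulated data. No pair of follicles was alike: any 2 differed in their counts at 13580 genes or more. Counting intervals would cover counting error only.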

Additional observations from a re-analysis of the deposited data

Results flagged for a closer look

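Of 116 values tested in the 9 follicles, 27 had 1 follicle whose gap to the next exceeded Dixon's 95% critical share of the range. Chance flags about 1 in 20 groups when values are normally distributed. Gene levels were taken here as TPM and not as logs, and whether they are so distributed was not tested. Many of these genes were named because they vary or rest on 1 follicle. The number is therefore a description and is not set against a chance rate.

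Follicle 3 held the lowest median correlation with the other follicles, 0.844, with 0.910 next. It also held the highest levels of Golph3 (255 TPM, next 20.4), Ppp3ca (106 TPM, next 11.9), Otud4 (24.04 TPM, next 4.67), Fam102b (16.3 TPM, next 1.75), Slc44a1 (20.9 TPM, next 3.53), Spry2 (68.6 TPM, next 12.6), Zc3h11a (92.8 TPM, next 38.1) and Cd68 (8.19 TPM, next 2.26). The same follicle held the lowest levels of the chaperone gene Hsp90ab1 (2372 TPM, next 4340), the ferritin gene Fth1 (1908 TPM, next 3273) and the cyclophilin gene Ppia (1374 TPM, next 3176).

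Follicle 7 held the highest sum of matrix and basal lamina genes, 2024 TPM with 1125 TPM next, and the highest Col4a1 (460 TPM, next 117), Col1a1 (100.2 TPM, next 23.3), Col3a1 (648 TPM, next 234) and Sparcl1 (89.9 TPM, next 15.5). The endothelial genes Cdh5 (9.78 TPM, next 3.82) and Emcn (4.33 TPM, next 1.40) were highest there too.

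Follicle 8 held the highest Aldh1a1 (1481 TPM, next 756) and Csf1r (1.97 TPM, next 0.952). Follicle 1 held the highest Cyp17a1 (142 TPM, next 72.1) and Vwf, an endothelial gene (10.7 TPM, next 4.45). Follicle 9 held the highest Krt18, an epithelial keratin (6.62 TPM, next 2.80), follicle 5 the highest Lhcgr (214 TPM, next 86.6), follicle 6 the highest Oog1 (58.5 TPM, next 24.5) and follicle 2 the highest Gja1 (37890 TPM, next 26041).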

How the results depend on the processing

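No paired analysis was possible because the follicles compared, all at 0 h, share no replicate number. The cause of each change below was not tested. Between ds follicles and the others, 0 genes passed, 2 in DESeq2 and 1 with the otherwise left-out genes kept. That gene, RP23-239I17.5, is one the rule leaves out. For Lhcgr, 11 genes passed. The count was 198 in DESeq2, 0 in limma at either pseudocount, 0 with left-out genes kept, 0 with the ds mark as a further term, and 0 to 68 with 1 follicle left out. For Cyp17a1 it was 0, against 1 with no filter on low counts and 10 in DESeq2. For Gdf9 it was 0, against 3 with no filter, 24 in DESeq2, 12 and 1 in limma with pseudocounts of 1 and 0.1, 4 with the ds mark as a term, and 0 to 2 with 1 follicle left out. For Mki67 it was 0, against 31 in DESeq2. For Nr4a1 it was 0, against 1 with no filter, 43 in DESeq2 and 0 to 38 with 1 follicle left out (38 without follicle 9). For library size it was 0, against 18 in DESeq2 and 0 to 13 with 1 follicle left out (13 without follicle 7).

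The count of 24 variable genes was 23 with RLE scaling (23 of the 24 among them), 20 after thinning to the smallest total (15) and 24 with left-out genes kept (22). After thinning, 16 of the 24 could still be tested, and 22 with left-out genes kept. It was 399 with no filter (12 of the 24 among them), 84 by variance over a loess trend (all 24), 14 without the 5 ds follicles (11), 50 without the other 4 (9), 249 at a ratio of 2 and 0 at a ratio of 8. Alternatives chosen after seeing the data gave 51 with a filter on the average (17) and 60 without follicle 3 (20). The correlations of 6 pairs of named genes without follicle 3 were also computed after seeing the data, and all kept their sign. At later times, leaving out each follicle is part of what defines a variable gene, and the counts themselves were not recomputed without a follicle. The granulosa sum averaged 69024 TPM, against 44044 TPM as deposited, before rescaling. The ds difference in mitochondrial share was -1.39 percentage points, and 1.69 with left-out genes in the totals.

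Oocyte genes and most markers of other cells had too few counts for the measure of spread, and 9 follicles with no link to animals limit what can be told from them.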
